A study of Mus musculus with 16 samples.

Results

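The BCL2 family decides whether a cell keeps its mitochondria intact or enters apoptosis. Survival members (Bcl2, Bcl2l1 which encodes BCL-XL, Mcl1 and the Bcl2a1 copies which encode A1) hold the effector Bax in check. BH3-only members (Bcl2l11 which encodes BIM, Bbc3 which encodes PUMA, Pmaip1 which encodes NOXA, and Bmf) bind the survival members and so release or activate the effectors. Mast cells are long-lived, and cross-linking of their IgE receptor is known to change both their mediator output and their survival genes. The 10 genes described here are these members, chosen by name with earlier results of these data known. They were matched to the Ensembl identifiers of the count files. Of the 10, 9 had a row under their GENCODE M21 identifier among 39179 genes (other identifiers of Bcl2a1d were not searched), and 8 passed the filter on low counts, which left 13305 genes for the tests.

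The cells were bone marrow derived mast cells (BMMCs), grown for 4 weeks with stem cell factor and IL-3 from male C57BL/6 mice of 8 to 10 weeks of age. They came from PEP+/+ mice or from PEP-/- mice, which lack the phosphatase PEP encoded by Ptpn22. All 16 samples were sensitized with IgE for 3 h (0.05 µg/ml by the labels, while the study's methods state another dose). Each genotype had 4 treatments with 2 replicates: IgE alone, IgE with the antigen DNP (200 ng/ml, 1 h; IgE DNP), IgE with dexamethasone (0.1 µM, 8 h; IgE DEX), and all agents together (IgE DNP DEX). Every control thus carries IgE, and no sample without IgE was analysed here. The study calls the replicates biological, but the labels do not say whether they came from separate cultures or animals, so p-values measure only the spread between these samples.

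The samples held 8612531 to 22143526 reads on genes. Ptpn22 had 130 to 2799 reads in the PEP+/+ samples and 0 to 55 in the PEP-/- samples. The dexamethasone target Tsc22d3 rose with DEX by 3.13 on the log2 scale in sensitized cells, and Il13 rose with DNP by 6.70. All 9 mast cell markers examined, Kit and Cpa3 among them, had a median above 1 CPM (counts per library size of 1e6, scaled by TMM). Their summed level was 63080 to 103600 CPM. Lists for neutrophils, macrophages and T cells summed to at most 7.23 CPM. Camp, C1qa and Cd3e had 0 reads in every sample. Ly6g of the neutrophil list reached 2.28 CPM, and Adgre1 of the macrophage list held 1.05 to 6.385 CPM. The 3 basophil markers summed to 539 to 623 CPM after IgE, 750 to 882 after IgE DNP, 228 to 393 after IgE DEX and 431 to 479 after IgE DNP DEX. Most of this was Cd200r3, with a median of 458 CPM over the 16 samples, against 28.2 for Mcpt8 and 21.2 for Prss34. In the eosinophil list, Epx had 0 reads, Prg2 at most 0.521 CPM and Siglecf up to 8.055 CPM. The list held 0.174 to 2.09 CPM after IgE and 2.81 to 7.79 CPM after IgE DNP. The dendritic cell list held 0.147 to 0.607 and 1.14 to 3.15 CPM in the same samples. The part of these lists in the results below was not tested. In bulk RNA a change in the number of cells of a type and a change in RNA per cell cannot be told apart.

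The Bcl2a1 copies are shown first, because their sequence limits what a read count can say about them. Mice carry several near-identical copies on chromosome 9, and a read that aligned to more than 1 of them was not counted on any gene. The first 60 bases of the coding sequence of 4 copies (GRCm38) follow, with capitals at the 6 positions where at least 1 copy differs from another:
Bcl2a1a: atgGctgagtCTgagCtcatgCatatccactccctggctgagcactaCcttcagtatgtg
Bcl2a1b: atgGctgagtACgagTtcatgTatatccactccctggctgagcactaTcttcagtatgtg
Bcl2a1c: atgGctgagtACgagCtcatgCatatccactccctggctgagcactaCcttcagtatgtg
Bcl2a1d: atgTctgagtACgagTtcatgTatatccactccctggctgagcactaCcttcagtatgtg
Over the whole coding sequence, Bcl2a1b and Bcl2a1d differ at 6 of 519 bases, and Bcl2a1a and Bcl2a1b at 11. Bcl2a1c is less alike than its first 60 bases. Its coding sequence has 387 bases, and compared base by base from the start it differs from the other copies at 67 to 69. Of all 50-base stretches of the transcript, 79.2% in Bcl2a1b, 79.5% in Bcl2a1d and 10.4% in Bcl2a1c also occur in another gene. Among the 8 members tested, this share was 13.8% for Bax, all of it shared with the overlapping gene model Gm45808, and at most 0.221% for the others. The share of Bcl2a1b likewise includes stretches of Gm29094, a gene model that overlaps 401 of its exon bases on the same strand. Stretches shared with Gm29094 alone were not counted apart.

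Bcl2a1b (chr9:89199209-89207827, plus strand) had 9 reads in the whole data set, and Bcl2a1d (chr9:88723285-88731914, minus strand) had no row under its identifier. All 9 reads of Bcl2a1b lay in 5 of the 8 samples that received DNP, with 2 and 0 reads after IgE DNP in PEP+/+, 1 and 4 in PEP-/-, and 1 in each PEP-/- sample after IgE DNP DEX. The 8 samples without DNP had 0 reads of 112139425, which allows up to 0.0268 CPM over the group for uniquely placed reads and for counting error only. No change is given for A1, since its row did not pass the filter.

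Levels per kb were taken over all annotated exon bases of a gene, which can exceed the length of a single transcript. This length was 1576 bases for Bax and 8029 for Bcl2l11, against 1100 and 5036 in their longest coding transcript. For Mcl1 both were 3418. The order below uses the merged exon length only, and another length could change it. Compared per kb of exon, Mcl1 and Bax were the most abundant of the 9 members with a row in all 4 treatments. After IgE they stood at 70.3 and 69.0 CPM per kb, and their ranges over the 4 samples overlapped (65.4 to 73.5 and 58.4 to 77.3). Bbc3 followed at 22.8 CPM per kb (18.02 to 31.1), clear of its neighbours on both sides. From there each neighbour in the order overlapped the next: Bcl2l1 (9.94), Bcl2 (7.98), Pmaip1 (3.32), Bmf (1.87) and Bcl2l11 (1.68). After IgE, the Bmf mean was below that of Bcl2l11 in PEP+/+ (1.30 and 1.62 CPM per kb) and above it in PEP-/- (2.44 and 1.74), and their samples overlapped. After IgE DNP, Bcl2l11 stood at 18.3 CPM per kb (15.96 to 20.6), below Bbc3 and overlapping Bcl2l1 (12.6 to 18.4). After IgE DEX, Bcl2 stood at 41.3 CPM per kb (28.3 to 51.2), ahead of Bbc3 (12.51 to 19.5) with no overlap.

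**Figure D1:**
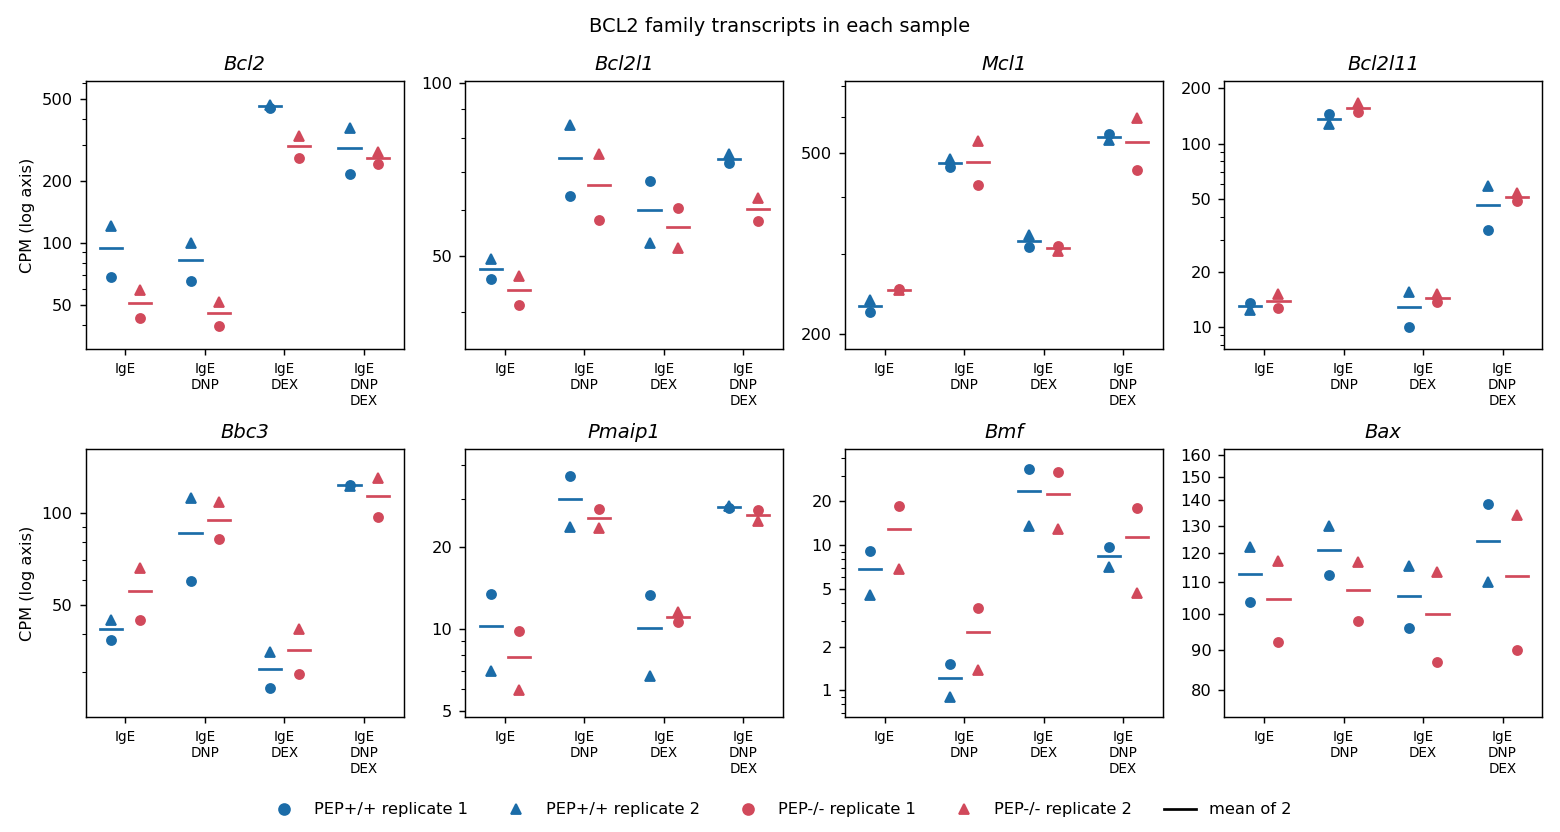
Level of the 8 tested members in each of the 16 samples, in CPM on a log axis that differs between panels, by treatment (PEP+/+ in blue, PEP-/- in red, circles for replicate 1 and triangles for replicate 2, bars for the mean of 2). Bcl2l11 reached 128 to 166 CPM only after IgE DNP, Bcl2 was above 216 CPM in every sample with DEX, and Bmf was lowest after IgE DNP.

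The antigen comparison asks which members change when the sensitized cells are activated. DNP raised 5 of the 8 tested members and lowered 1, that is 75% of them, against 16.7% of all genes tested. Because the members were chosen with earlier results of these data known, this share is a description. The median log2 fold change was 0.77 over the 8 members and -0.00065 over all genes. Among the increases were 3 of 4 BH3-only members and 2 of 3 tested survival members. The test was edgeR's quasi-likelihood test on all 16 samples, averaged over both genotypes, with a change called at a Benjamini-Hochberg adjusted p under 0.05. A second fit added a block for the replicate number, because same-numbered samples deviated together. In that fit 37.9% of all genes were called and the same 6 members. Within each genotype, without the block, 3 of the 8 were called: Bcl2l11, Pmaip1 and Mcl1. Of 13305 genes, 533 rose and 252 fell in PEP+/+, and 624 rose and 336 fell in PEP-/-. Bcl2l1, Bbc3 and Bmf passed in neither genotype without the block, and in both with it.

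Bcl2l11 (chr2:128126038-128162547, plus strand), whose product BIM binds all the survival proteins, had the largest change of the 8. After IgE it stood at 13.6 and 12.4 CPM in PEP+/+ and at 12.7 and 15.2 CPM in PEP-/-. After IgE DNP it stood at 144 and 128 CPM in PEP+/+ and at 149 and 166 CPM in PEP-/-. The groups did not overlap, and the 4 same-numbered differences were all between 3.35 and 3.54 on the log2 scale. This is a log2 fold change of 3.44 (standard error, SE, of 0.20; adjusted p = 1.09e-06), or 10.9-fold. It was 3.39 in PEP+/+ and 3.49 in PEP-/-, both past the threshold.

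Pmaip1, whose product NOXA binds mainly MCL1 and A1, stood at 13.4 and 7.03 CPM in PEP+/+ and at 9.83 and 5.97 CPM in PEP-/- after IgE. After IgE DNP the values were 36.4 and 23.6 CPM in PEP+/+ and 27.7 and 23.6 CPM in PEP-/-. The groups did not overlap, and the log2 fold change was 1.63 (SE 0.28, adjusted p = 0.00193). Bbc3 (chr7:16308393-16318205, plus strand), known as a target of p53 and of FOXO factors, stood at 38.3 and 44.6 CPM in PEP+/+ and at 44.4 and 66.1 CPM in PEP-/- after IgE. After IgE DNP it stood at 59.7 and 112 CPM in PEP+/+ and at 81.8 and 108 CPM in PEP-/-. Here the groups overlapped, while each of the 4 same-numbered differences was positive (0.64 to 1.32). The log2 fold change of Bbc3 was 0.91 (SE 0.23, adjusted p = 0.0171). The call was lost without any of 4 samples, replicate 1 of IgE or replicate 2 of IgE DNP in either genotype, at adjusted p up to 0.0808, and when only the conditions compared were fitted (adjusted p = 0.0584).

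Bmf (chr2:118528757-118549687, minus strand), a BH3-only member known to be tied to the cytoskeleton, was the member that fell. After IgE it stood at 9.18 and 4.51 CPM in PEP+/+ and at 18.8 and 6.89 CPM in PEP-/-. After IgE DNP it stood at 1.51 and 0.900 CPM in PEP+/+, from 16 and 8 reads, and at 3.69 and 1.38 CPM in PEP-/-. The groups did not overlap. In each of the 8 conditions replicate 1 was above replicate 2, so the spread within groups was wide although the 4 same-numbered differences were close, from -2.49 to -2.16. The log2 fold change was -2.42 (SE 0.60, adjusted p = 0.0168), with an adjusted p of 1.42e-06 with the replicate block. Without the block the call was lost without any of the same 4 samples as for Bbc3, at adjusted p up to 0.0702.

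Among the survival members, Mcl1 (chr3:95658788-95663176, plus strand), whose protein is short-lived and is renewed from its transcript, rose by 0.99 on the log2 scale (SE 0.12, adjusted p = 0.000259). It went from 224 and 237 CPM in PEP+/+ and 251 and 249.3 CPM in PEP-/- to 466 and 485 CPM and to 424 and 529 CPM. Every IgE DNP sample lay above every IgE sample. Bcl2l1 (chr2:152780668-152831728, minus strand) rose by 0.62 (SE 0.15, adjusted p = 0.0125), from 41.1 to 49.4 CPM over the 4 IgE samples to 57.7 to 84.4 CPM. Its call was lost without PEP-/- IgE replicate 1, PEP+/+ IgE DNP replicate 2 or PEP-/- IgE DNP replicate 2, at adjusted p up to 0.0654. Bcl2 (chr1:106538178-106714274, minus strand) had a log2 fold change of -0.18 (95% confidence interval -0.70 to 0.33), with an adjusted p of 0.719. The effector Bax (chr7:45461697-45466898, minus strand) had a log2 fold change of 0.07 (-0.30 to 0.44), with an adjusted p of 0.872.

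The comparison of IgE DEX with IgE asks what the glucocorticoid does to sensitized cells without antigen. It shares its IgE samples with the antigen comparison. Bcl2 was the 1 member of 8 called, against 9.37% of all genes tested. With the replicate block 5 of 8 members were called, against 26.7% of all genes. The median log2 fold change of the members was 0.29, and that of all genes 0.0011.

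Bcl2 stood at 68.2 and 121 CPM in PEP+/+ and at 43.4 and 59.2 CPM in PEP-/- after IgE. After IgE DEX it stood at 454 and 469 CPM in PEP+/+ and at 259 and 330 CPM in PEP-/-. Every DEX sample was above every IgE sample. The log2 fold change was 2.40 (SE 0.25, adjusted p = 9.57e-05), or 5.29-fold, with 2.28 in PEP+/+ and 2.52 in PEP-/-. An antisense gene, D630008O14Rik, overlaps Bcl2 and had at most 4 reads in a sample, or up to 0.174% of those of Bcl2.

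With the replicate block, which changed these calls, 3 further members rose and 1 fell. Mcl1 had a log2 fold change of 0.39 in both fits (adjusted p = 0.0806, with the block 0.00732), and its 4 DEX samples at 305 to 331 CPM lay above the 4 IgE samples at 224 to 251 CPM. Bcl2l1 had 0.35 (adjusted p = 0.199, with the block 0.041), from 41.1 to 49.4 CPM against 51.7 to 67.4 CPM. Bmf had 1.29 (adjusted p = 0.197, with the block 6.0e-05). It stood at 33.4 and 13.5 CPM in PEP+/+ and at 31.7 and 13.02 CPM in PEP-/- after IgE DEX, higher than the same-numbered IgE sample in 4 of 4 cases. Bbc3 had -0.54 (adjusted p = 0.21, with the block 0.00398), with 26.6 and 34.8 CPM in PEP+/+ and 29.7 and 41.5 CPM in PEP-/- after IgE DEX. Bcl2l11 did not pass in either fit. Its log2 fold change was 0.01 (95% confidence interval -0.41 to 0.43), and its 4 DEX samples held 10.0 to 15.6 CPM.

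The comparison of IgE DNP DEX with IgE DNP asks the same of activated cells. DEX raised Bcl2 and Bmf and lowered Bcl2l11, so 3 of 8 members (37.5%) were called, against 10.7% of all genes tested. With the block Bbc3 was added and 33.3% of all genes were called. The median log2 fold change was 0.11 over the members and -0.010 over all genes.

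Bcl2 rose by 2.15 (SE 0.24, adjusted p = 0.000214). It stood at 65.7 and 99.7 CPM in PEP+/+ and at 39.8 and 51.6 CPM in PEP-/- after IgE DNP. With DEX added it stood at 216 and 362 CPM in PEP+/+ and at 242 and 276 CPM in PEP-/-. The groups did not overlap, and all 4 same-numbered differences were positive (1.72 to 2.60). The log2 fold change was 1.81 in PEP+/+ and 2.50 in PEP-/-, both past the threshold. In PEP+/+ it ran from 1.42 to 2.17 when each sample was left out in turn.

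Bcl2l11 fell by 1.59 (SE 0.19, adjusted p = 0.000299). With DEX added it stood at 34.0 and 58.4 CPM in PEP+/+ and at 48.6 and 53.8 CPM in PEP-/-, below each of the 4 IgE DNP samples at 128 to 166 CPM and above each IgE sample at 12.4 to 15.2 CPM. The fall was 1.56 in PEP+/+ and 1.62 in PEP-/- on the log2 scale. Bmf rose by 2.48 (SE 0.60, adjusted p = 0.0219), to 9.76 and 7.06 CPM in PEP+/+ and 18.1 and 4.66 CPM in PEP-/-. These values overlapped those after IgE alone (4.51 to 18.8 CPM). The call of Bmf was lost without any of 5 samples, both PEP+/+ IgE DNP replicates, PEP-/- IgE DNP replicate 2 or replicate 1 of IgE DNP DEX in either genotype, at adjusted p up to 0.0833. It held with the block (adjusted p = 1.47e-06).

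Bbc3 had a log2 fold change of 0.39 with DEX in activated cells (adjusted p = 0.333, with the block 0.0135), and stood at 124 and 123 CPM in PEP+/+ and 97.1 and 130 CPM in PEP-/-. Bcl2l1 had -0.07 (95% confidence interval -0.39 to 0.25), Mcl1 0.17 (-0.10 to 0.44), Pmaip1 -0.03 (-0.62 to 0.55) and Bax 0.05 (-0.33 to 0.42). None of these 4 passed in either fit.

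**Figure D2:**
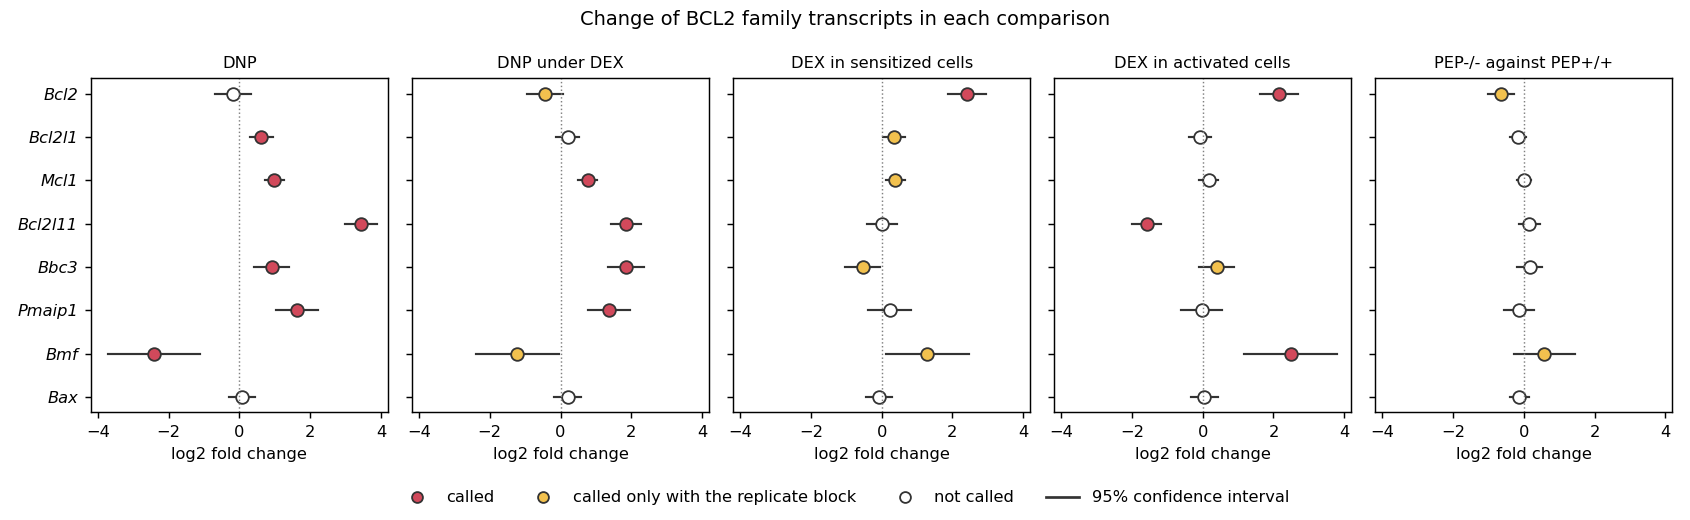
Log2 fold change of the 8 tested members with its 95% confidence interval, for antigen (without and with DEX), for DEX (in sensitized and activated cells) and for genotype (red, called; yellow, called only with the replicate block; white, not called). Bcl2 stands at 2.40 and 2.15 in both DEX panels, and Bcl2l11 at 3.44 with DNP, 1.84 with DNP under DEX and -1.59 with DEX in activated cells.

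The antigen response that remained under DEX was taken from IgE DNP DEX against IgE DEX. Of the 8 members, 4 rose (50%), against 12.6% of all genes tested called in either direction. With the block 6 of 8 were called, against 37.6% of all genes. Bcl2l11 rose by 1.84 (SE 0.19, adjusted p = 0.000117), Bbc3 by 1.84 (0.23, adjusted p = 0.000397), Pmaip1 by 1.37 (0.27, adjusted p = 0.0073) and Mcl1 by 0.77 (0.12, adjusted p = 0.0021). In each of these 4 genes every IgE DNP DEX sample lay above every IgE DEX sample. These genes had been called in this same comparison, and the share of all genes that separated in this way was not computed. Pmaip1 went from 6.73 to 13.4 CPM to 24.9 to 28.3 CPM, and Mcl1 from 305 to 331 CPM to 458 to 595 CPM. Bcl2l1, at 57.6 to 75.02 CPM with all agents, had 0.20 (95% confidence interval -0.12 to 0.52). Bmf had -1.23 (adjusted p = 0.169, with the block 0.000123) and Bcl2 -0.43 (adjusted p = 0.279, with the block 0.00897), both lower in 4 of 4 same-numbered differences.

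Whether the antigen response differed with and without DEX was tested as an interaction, (IgE DNP DEX minus IgE DEX) minus (IgE DNP minus IgE). Bcl2l11 was the 1 member of 8 called, against 0.331% of all genes. Its interaction was -1.60 on the log2 scale (SE 0.27, adjusted p = 0.0346, with the block 0.000647), the response of 3.44 without DEX being larger than that of 1.84 with it. DESeq2 called it too. The value stayed between -1.80 and -1.40 when each sample was left out in turn, but the call was lost in 14 of these 16 fits, at adjusted p up to 0.132. It was kept without PEP+/+ IgE DEX replicate 1 or PEP+/+ IgE DNP DEX replicate 2.

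Bbc3 had an interaction of the other sign, 0.93 (SE 0.32, adjusted p = 0.879). With the block it was 0.96 and called (adjusted p = 0.00767), where 1.57% of all genes were called. Its antigen response was 0.91 without DEX and 1.84 with it. The remaining 6 members did not pass in either fit. Their interactions ran from -0.42 for Bcl2l1 (95% confidence interval -0.87 to 0.03) to 1.19 for Bmf (-0.54 to 2.92).

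**Figure D3:**
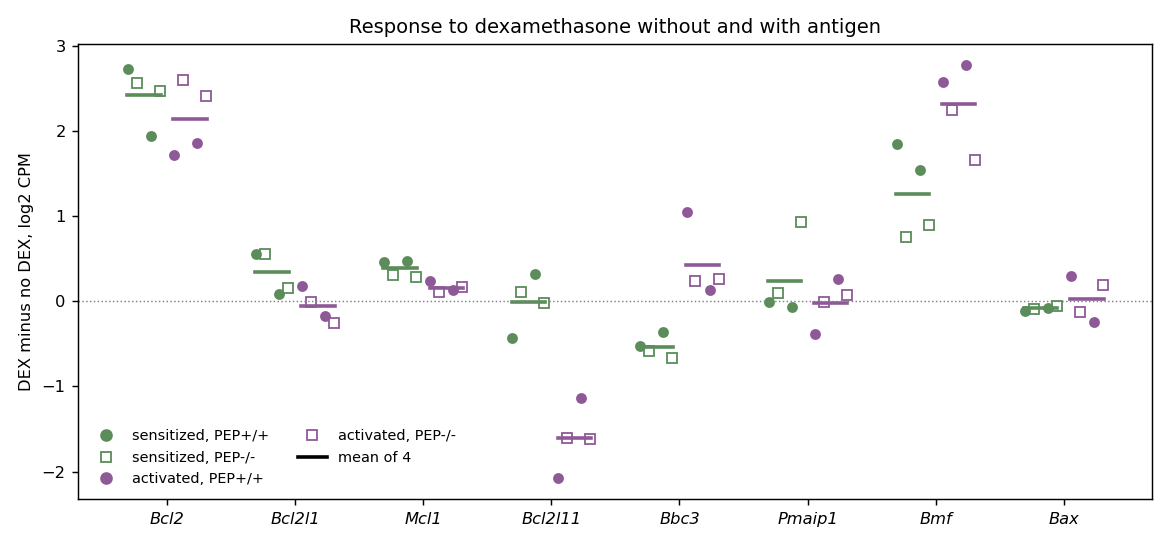
Difference in log2 CPM between each sample with DEX and the same-numbered sample without it, for the 8 tested members, in sensitized cells (green) and activated cells (purple), with filled circles for PEP+/+, open squares for PEP-/- and bars for the mean of 4. Bcl2l11 lies on both sides of 0 in sensitized cells and between -2.08 and -1.13 in activated cells, while Bbc3 lies between -0.67 and -0.36 and then between 0.14 and 1.05.

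The promoters of Bcl2l11 and Bbc3 are shown because both genes rose with antigen and their interactions had opposite signs. Both are known as FOXO targets. The 250 bases before a RefSeq start site (GRCm38.p6, plus strand) follow, with capitals at a match to the FOXO core TGTTTAC or its reverse complement GTAAACA:
Bcl2l11, chr2:128125788-128126037: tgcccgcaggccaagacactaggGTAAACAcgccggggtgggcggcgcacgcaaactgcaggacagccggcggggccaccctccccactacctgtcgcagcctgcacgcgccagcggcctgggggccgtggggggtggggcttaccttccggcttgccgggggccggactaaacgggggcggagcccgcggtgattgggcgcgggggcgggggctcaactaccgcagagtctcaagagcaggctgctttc
Bbc3, chr7:16310011-16310260: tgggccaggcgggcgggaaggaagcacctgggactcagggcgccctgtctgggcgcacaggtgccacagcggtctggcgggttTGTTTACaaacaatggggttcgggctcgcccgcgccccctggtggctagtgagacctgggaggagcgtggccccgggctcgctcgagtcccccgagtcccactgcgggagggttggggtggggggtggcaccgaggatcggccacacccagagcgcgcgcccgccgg
Counted from the start site, the match begins at -227 in Bcl2l11 and at -167 in Bbc3, where the window falls in the intron of a longer gene model. Over windows from 250 bases before to 50 after a start, searched on both strands, this core occurs in 3.65% of 32851 windows. It occurs in 2 of 16 windows of the 9 members searched. The 9 include Bcl2a1b and Bcl2a1d but not Pmaip1, whose promoter was not searched. The motif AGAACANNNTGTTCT of the glucocorticoid receptor occurs in 0.0091% of all windows and its shorter core TGTTCT in 19.0%. The AP-1 motif TGACTCA occurs in 5.20% and the cyclic AMP motif TGACGTCA in 1.79%. None of these is in a window of the 9 members searched. The NF-kB letters GGGNNNTTCC occur in 5.56% of windows, and in those of Bbc3, Bcl2l1 and Mcl1. These are matches of letters, not measured binding. The motifs were chosen after the results were seen.

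The genotype comparison asks whether loss of PEP changed these levels. With edgeR, averaged over the 4 treatments, 0 of 8 members passed (1 at an unadjusted p under 0.05), against 1.59% of all genes. DESeq2 called 1 of 8, Bcl2, and 7 of the 57 tested genes of the other lists described below. Its share of all genes is not given here, so this count has no background. With the block 2 of 8 were called, against 17.4% of all genes. Bcl2 was lower in PEP-/- in 7 of 8 same-numbered differences, with a log2 fold change of -0.64 (SE 0.17, adjusted p = 0.085, with the block 0.000333). Within treatments it was -0.88 after IgE and -0.85 after IgE DNP (adjusted p = 1 and 0.975, with the block 0.0287 and 0.0264), -0.65 with DEX alone and -0.16 with DEX and DNP. The last 2 passed the threshold in neither fit. Bmf had 0.58 (adjusted p = 0.6, with the block 0.0304), higher in 5 of 8 differences. For Mcl1 the genotype difference was 0.01 (95% confidence interval -0.18 to 0.20), for Bcl2l11 0.15 (-0.14 to 0.44) and for Bax -0.13 (-0.39 to 0.14).

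Whether the responses themselves differed between genotypes was tested directly for DNP, for DEX in sensitized cells and for DEX in activated cells. In each of these 3 tests 0 members passed with edgeR or with DESeq2, and 0% of all genes did with edgeR. At an unadjusted p under 0.05 there were 0 members in all 3 tests without the block. With it there were 0 for DNP, 1 (Bmf) for DEX in sensitized cells and 1 (Bcl2) for DEX in activated cells. The intervals are wide for Bmf, where the genotype difference in the DEX response of sensitized cells was -0.95 (95% confidence interval -3.26 to 1.37), and narrower for Mcl1, with -0.17 (-0.71 to 0.37). A miss of the threshold therefore does not show that the genotypes responded alike.

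Genes that act with the family were taken from lists of 68 other genes, of which 67 had a row and 57 were tested. With DNP 11 rose and 5 fell (28.1%, against 16.7% of all genes), with a median log2 fold change of -0.01. With DEX in sensitized cells 3 rose and 3 fell (10.5%, against 9.37%, median -0.12), and in activated cells 4 rose and 4 fell (14.04%, against 10.7%, median -0.14). Under DEX, DNP raised 8 of them (14.04%, against 12.6%, median 0.03), and none fell without the block. With the replicate block 15 rose and 11 fell with DNP (45.6%, against 37.9% of all genes), 5 and 12 with DEX in sensitized cells (29.8%, against 26.7%), 9 and 18 with DEX in activated cells (47.4%, against 33.3%) and 15 and 11 with DNP under DEX (45.6%, against 37.6%). For the interaction 0 of the 57 passed with edgeR, against 0.331% of all genes, and 0 with DESeq2. With the block 1 passed (1.75%, against 1.57% of all genes). An unadjusted p under 0.05 without the block was found for 3, and no share of all genes is given for it. For genotype 1 was higher and 2 were lower in PEP-/-, (5.26%, against 1.59%), and 8 and 10 with the block (31.6%, against 17.4%). The genes named next passed in both fits.

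Of the 5 remaining BH3-only genes tested, 1 was called with DNP (20%, against 16.7% of all genes, and with the block 20% against 37.9%). Bid, whose product is cut by caspase-8, fell with DNP by 1.01 on the log2 scale (adjusted p = 0.000592) and rose with DEX in activated cells by 0.55 (adjusted p = 0.0303). Bik, another BH3-only gene, was called lower with DEX in sensitized and activated cells (adjusted p = 0.0229 and 0.0364) on few reads. It had 5 to 13 reads per sample (0.441 to 0.781 CPM) after IgE and 1 to 5 (0.0421 to 0.259 CPM) after IgE DEX, and 7 to 15 after IgE DNP and 0 to 6 after IgE DNP DEX, so no fold is given. Bcl2l2, which encodes the survival protein BCL-W, fell by 0.57 with DEX in activated cells (adjusted p = 0.0451). Of the 11 tested genes of the apoptosome and caspases, 27.3% were called with DNP, against 16.7% of all genes (with the block 45.45% against 37.9%). The initiator caspases Casp9 and Casp2 fell with DNP by 1.03 and 0.88 (adjusted p = 0.0307 and 0.024). Cycs, which encodes cytochrome c, rose with DNP by 0.62 without DEX and by 0.87 under DEX (adjusted p = 0.0321 and 0.00778) and was lower in PEP-/-, at -0.60 (adjusted p = 0.0361). Birc3, which encodes the ubiquitin ligase cIAP2, was the 1 of 7 tested caspase inhibitors called (14.3%, against 9.37% and 10.7% of all genes), and rose with DEX by 1.45 in sensitized and 1.44 in activated cells (adjusted p = 0.000678 and 0.000757).

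In the list of the death receptor arm, which is not limited to receptors, 4 of 8 tested genes rose with DNP and 1 fell. This is 62.5%, against 16.7% of all genes, and with the block 62.5% against 37.9%. Tnfrsf10b rose by 1.36 and Cflar by 0.93, while Fadd fell by 0.53 (adjusted p = 0.00398, 0.00608 and 0.0475). The TNF receptor gene Tnfrsf1b rose by 1.87 (adjusted p = 0.00054), and by 1.42 under DEX. Fas, which encodes the receptor of FAS ligand, rose by 1.45 (adjusted p = 0.0237), and by 1.81 under DEX. Of 8 tested transcription factors known to act on the family, 3 were called in each of the antigen and DEX comparisons (37.5%). The share of all genes was 16.7% with DNP, 9.37% and 10.7% with DEX in sensitized and activated cells, and 12.6% with DNP under DEX. With the block the list had 62.5%, 50%, 37.5% and 75% in that order, against 37.9%, 26.7%, 33.3% and 37.6% of all genes. Myc rose with DNP by 1.55 and the NF-kB subunit Rela by 1.24 (adjusted p = 0.00149 and 0.000499). Foxo1 rose by 1.03 (adjusted p = 0.0092) with DEX in sensitized cells and Foxo3 with DEX in activated cells by 0.62 (adjusted p = 0.0102), while Foxo3 fell with DNP by 0.47 (adjusted p = 0.0291). With DEX in sensitized and activated cells, the cell cycle factor E2f1 fell by 1.08 and 0.87, and Trp53, which encodes p53, fell by 0.57 and 0.46 (adjusted p = 0.00773 and 0.023). Under DEX, Trp53 rose with DNP by 0.38 (adjusted p = 0.0494). Foxo4 was higher in PEP-/- by 0.46 (adjusted p = 0.0362). Among 13 tested regulators of the proteins, the chaperone partner Bag3 rose with DNP by 1.99 and the kinase gene Pim1 by 1.499 (adjusted p = 7.42e-06 and 0.0489). Pim3 rose with DEX by 1.02 and 0.85, Ywhaz rose with DNP by 0.62 both without and under DEX, and Pim2 was lower in PEP-/- with a log2 fold change of -1.23 (adjusted p = 0.0102).

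**Figure D4:**
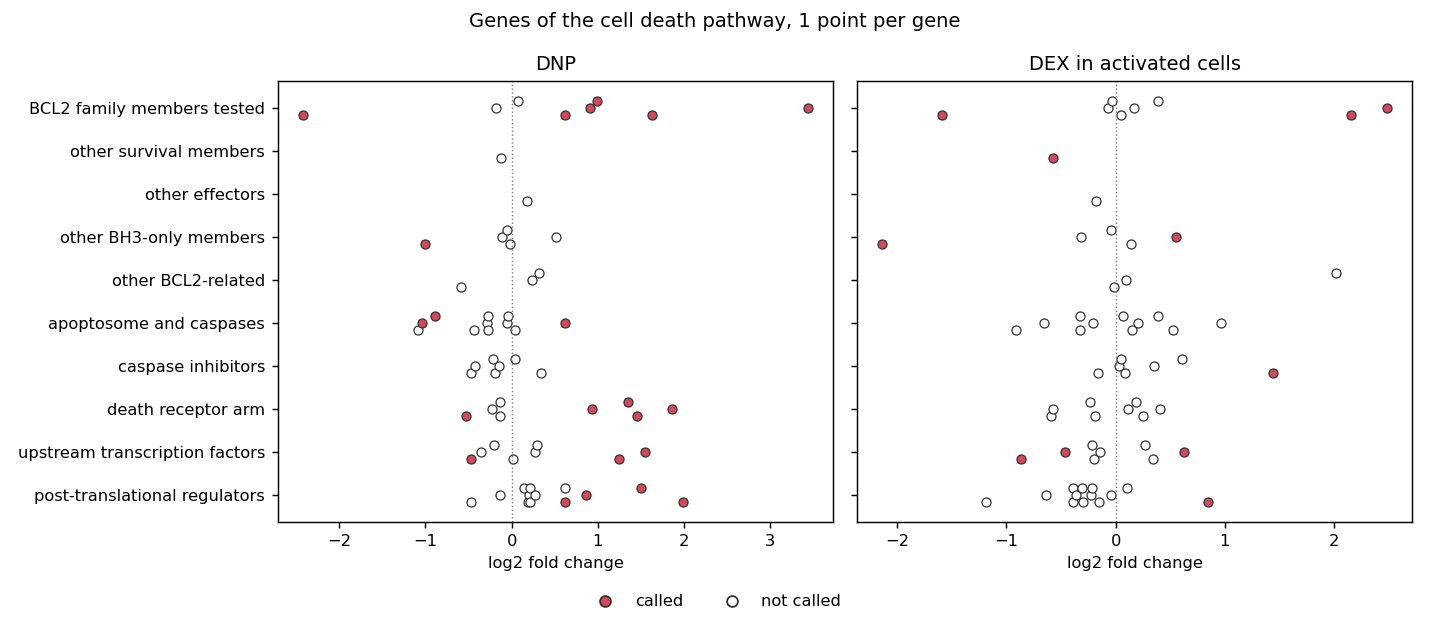
Log2 fold change of each tested gene of the family and of the other cell death lists, 1 point per gene, for DNP (left) and for DEX in activated cells (right), red where the change was called. With DNP the family members run from -2.42 (Bmf) to 3.44 (Bcl2l11), and 11 of the 57 other genes rose and 5 fell.

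For each of the 7 members called in a comparison, the genes with the most similar pattern were taken by the Pearson correlation of log2 CPM over the 16 samples, among all 13305 genes. All points share their libraries and their treatments, so the coefficients are a description. Bcl2l11 was closest to Ch25h (r = 0.983) and Il33 (0.982), Bbc3 to Gadd45g (0.970) and Hmces (0.967), and Bmf to Armc10 (0.973) and Abhd15 (0.970). Bcl2 was closest to Grm6 (0.963) and Gria3 (0.959), Mcl1 to Sbds (0.976) and Ist1 (0.976), Pmaip1 to Mafk (0.963) and Selenoi (0.958), and Bcl2l1 to Tle1 (0.910) and Srp68 (0.893).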

How the data were processed

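Messenger RNA of 16 BMMC samples was sequenced with a stranded kit as paired reads. According to the study's methods, TopHat2 placed the reads on GRCm38, and the authors deposited raw counts per gene made with HTSeq. The strand setting of the counting was not given in the sources used here. The 5 rows that name no gene were left out of the totals, and 21.5 to 37.8% of all counted rows per sample were reads without a unique place. Gene symbols came from GENCODE M21, which held 95.99% of the identifiers.

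The counts were scaled by TMM. The test was edgeR 4.0.16 under R 4.3.3 (filterByExpr with a minimum count of 10, glmQLFit, glmQLFTest, Benjamini-Hochberg over 13305 genes, threshold 0.05), fitted to all samples with the 8 conditions as the only term (8 residual degrees of freedom). CPM and log2 CPM (prior count 2) were used for levels. DESeq2 1.42.0 was an alternative. The deposited samples of a condition carry a number or a letter, taken as replicates 1 and 2. Deviations of same-set samples from their condition means correlated in all 28 pairs of conditions (r = 0.453 to 0.799), so a fit with the replicate block is given where it changed a call. The further alternatives were DESeq2's size factors, no filter, a minimum of 10 counts in all samples and a fit of the conditions compared alone. A log2 fold change of at least 1 and each sample left out were also tried. None of these alternatives included the block. The script was tested on simulated counts.

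The text names the 10 members, up to 2 called genes of largest change per other list and comparison, the 2 genes most like each called member, and Ptpn22, Tsc22d3 and Il13 as checks. Trp53, Tnfrsf10b, Cflar, Fadd and the values of Cycs, Ywhaz and Foxo3 with DNP were added after values were seen. So were Bcl2a1a and Bcl2a1c, the promoter motifs, Gm45808, Gm29094 and D630008O14Rik. The members and lists were chosen with earlier results of these data known. Shared 50-base stretches were counted on GENCODE transcripts, and promoters came from RefSeq (GRCm38.p6). Reads carry no molecular identifiers, so limits cover counting error only.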

Additional observations from a re-analysis of the deposited data

Results flagged for a closer look

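The antigen response of Bcl2l11 differed with and without DEX by a direct test of the interaction (-1.60 on the log2 scale, edgeR adjusted p = 0.0346). This call was lost in 14 of 16 fits that each left out 1 sample, at adjusted p up to 0.132. That of Bbc3 differed in the opposite direction with the replicate block (0.96, edgeR adjusted p = 0.00767) and did not pass without it (0.93, adjusted p = 0.879). For Bcl2l11 the interaction was also called with the block (edgeR adjusted p = 0.000647). The fits that left out a sample had no block.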

How the results depend on the processing

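Of 76 single values, none reversed and none lost a call under DESeq2's size factors, the replicate block or DESeq2. With the replicate block, members increased were 4 and decreased 1 for DEX in sensitized cells, decreased 2 for DNP under DEX, increased 1 for the interaction, increased 3 for DEX in activated cells, and increased 1 and decreased 1 for genotype. It changed no other count of members. DESeq2 and the fit with no filter on low counts each gave 2 members increased by DEX in sensitized cells and 1 lower in PEP-/-, and no filter gave 1 decreased by DNP under DEX. The shares of all genes called in these fits are not given here. With at least 10 counts in every sample Bmf was not tested, which left 0 members decreased by DNP and 1 increased by DEX in activated cells. A log2 fold change of at least 1 left 2 members increased by DNP and 3 by DNP under DEX. With only the conditions compared, 12 calls of 60 values were lost, and with no filter 2 of 76. Summing the Bcl2a1 rows gave 12 reads and no test.

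With each sample left out, 80 calls were lost among 1216 values, those within a genotype included. The members called ranged from 3 to 5 for increases with DNP, 0 to 1 for decreases with DNP, 1 to 2 for increases with DEX in activated cells and 0 to 1 for decreases in the interaction. The values that changed sign were not called. They ranged from -0.36 to 0.053 for Bcl2 with DNP, -0.15 to 0.057 for Bcl2l1 with DEX in activated cells, -0.047 to 0.050 for Mcl1 by genotype, and -0.16 to 0.15 for Bcl2l11 with DEX in sensitized cells. For Pmaip1 they were -0.059 to 0.50 and -0.15 to 0.16 with DEX in sensitized and activated cells and -0.54 to 0.027 for the interaction. For Bax they were -0.0089 to 0.16 with DNP, -0.18 to 0.014 and -0.095 to 0.20 with DEX, and -0.0070 to 0.29 for the interaction. The cause of these moves was not tested. Bmf rests on 8 to 45 reads per sample after IgE DNP.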
